A study of Mus musculus with 12 samples.

Results

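Interscapular brown adipose tissue of mice with 1 copy of the Ucp1-CreEvdr transgene was compared with that of wild type mice, gene by gene, from counts of polyadenylated RNA. Ucp1-CreEvdr is a bacterial artificial chromosome in which regulatory sequence of Ucp1 drives Cre recombinase, so that floxed genes can be deleted in brown and beige adipocytes. The comparison uses 4 of the 12 libraries of the series, 2 with 1 copy (labelled 1xUcp1-CreEvdr) and 2 wild type (labelled Wildtype), chosen by tissue and genotype in the labels. No floxed gene is named in the labels of either group, and all mice were 6 weeks old, lived at room temperature on a standard diet, and were killed in the morning. Another 2 brown libraries with 2 copies (2xUcp1-CreEvdr) entered the same fit to estimate the spread. Whether each library is a mouse of its own is not stated in the labels. The p-values therefore rest on library-to-library spread alone, and that spread could be technical.

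Brown adipocytes burn fatty acids and glucose in dense mitochondria, and UCP1 lets the resulting proton gradient run down as heat. Noradrenaline from sympathetic nerves switches this on, and the tissue also keeps a circadian clock. In that clock BMAL1 (from the gene Arntl) with CLOCK or NPAS2 activates the Per, Cry, Nr1d and Bhlhe40/41 genes, whose products repress in return. DBP, TEF and HLF carry the rhythm to output genes through a DNA element called the D-box, and NFIL3 represses through the same element.

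Total counts were 15679884 and 16485934 in the 1-copy libraries, against 17976280 and 31814056 in wild type libraries. Values below are CPM, the share of a library's reads in parts per 1000000 with totals scaled by TMM factors, as replicate 1 and replicate 2 in that order, and n = 2 libraries per group throughout. A CPM is not divided by gene length, so levels are compared between groups and not between genes. The groups did not overlap for 7260 of the 13414 genes tested, so a lack of overlap is common with 2 libraries a group. Log2 fold changes are 1 copy over wild type, ± SE, and adjusted p-values are from edgeR's quasi-likelihood test over all genes tested. The 2 libraries of a group correlated at r = 0.988 with 1 copy and 0.983 in wild type across genes (log2 CPM), and both pairs differed by more than sampling noise (chi-square per degree of freedom 9.23 and 37.1). The brown identity of all 4 libraries was clear from Ucp1, at 6177 and 4391 CPM with 1 copy and 7474 and 5993 CPM in wild type libraries. Cidea, another brown adipocyte marker, was at 2005 and 2113 CPM with 1 copy and 1934 and 2063 CPM in wild type libraries.

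Skeletal muscle RNA separated the groups. Interscapular brown fat lies against the muscles of the back, and 52 genes of muscle fibres (contractile, calcium handling and energy genes) were used to follow that tissue. Their summed level was 121.6 and 135.3 CPM in 1-copy libraries, against 4187 and 1784 CPM in wild type libraries, or 0.0122% and 0.0135% against 0.419% and 0.178% of all counts. Of the 52 genes 27 and 26 had no count in the 1-copy libraries, and none was at 0 in either wild type library. In the 2-copy libraries the sum was 109 and 108.3 CPM, so that among the brown libraries only the 2 wild type ones were rich in muscle transcripts. Pvalb, the calcium buffer of fast fibres, had 0 and 0 counts with 1 copy and 1122 and 1447 counts in wild type libraries, at least 575-fold lower with 1 copy when its 2 libraries are set at 3 counts together (adjusted p = 0.00229). Acta1, skeletal actin, was at 0.187 and 0.585 CPM with 1 copy and 567 and 192 CPM in wild type libraries (-9.89 ± 1.00, adjusted p = 0.0266). In bulk tissue, fewer cells of a type and less RNA per cell cannot be told apart.

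**Figure D1:**
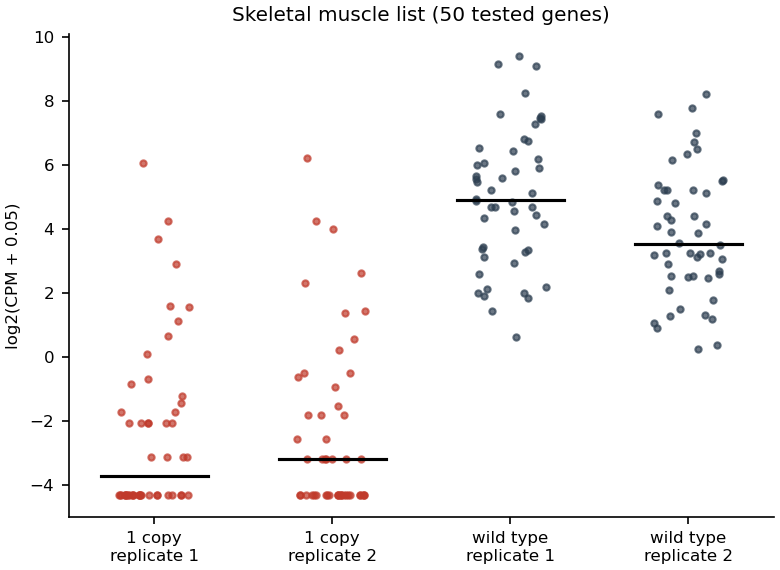
Level of each of the 50 tested genes of the skeletal muscle list in the 4 libraries, as log2(CPM + 0.05), with the median of each library as a bar. The points of the 1-copy libraries sit mostly at or near the lower limit, and most of those of wild type replicate 1 sit above those of wild type replicate 2.

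In all, 546 of the 13414 genes tested passed (adjusted p under 0.05), which is 4.07% of them: 204 were higher (1.52%) and 342 lower (2.55%) with 1 copy. The number rests on the 1-copy libraries, with 26 genes passing without 1-copy replicate 1 and 47 without 1-copy replicate 2, against 425 without wild type replicate 1 and 880 without wild type replicate 2. Of the muscle list 37 of 50 tested genes fell and none rose, with a median log2 fold change of -8.72, or -7.27 with the 21 genes at 0 in both 1-copy libraries set at their bound of 3 counts, against a median of 0.01 over all genes tested. A wider muscle mark was set from a white adipose library that also held muscle RNA. A gene carries it if it is in the list or had at least 1 CPM there and at least 4 times the CPM of the other library of the same group. The mark was on 154 of the 13414 genes tested, on 76 of the 342 that fell and on 2 of the 204 that rose, Cre and 1 other. It is not exact, because that white library was also rich in brown adipocyte RNA (2400 Ucp1 counts, against 28 in its partner), so that it marks Ucp1, Dio2 and Cre as well. It also misses genes known from muscle, such as Csrp3, Scn4a and Alpk3, named here after their values were seen. Another view, chosen after the data were seen, comes from the 2 wild type libraries themselves, which held muscle RNA in unequal amounts (median ratio of replicate 1 to replicate 2 of 2.28 over the list). That ratio was at least 1.5 for 95 of the 342 genes that fell (27.8%), for 7 of the 204 that rose (3.43%) and for 7.77% of all genes tested.

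**Figure D2:**
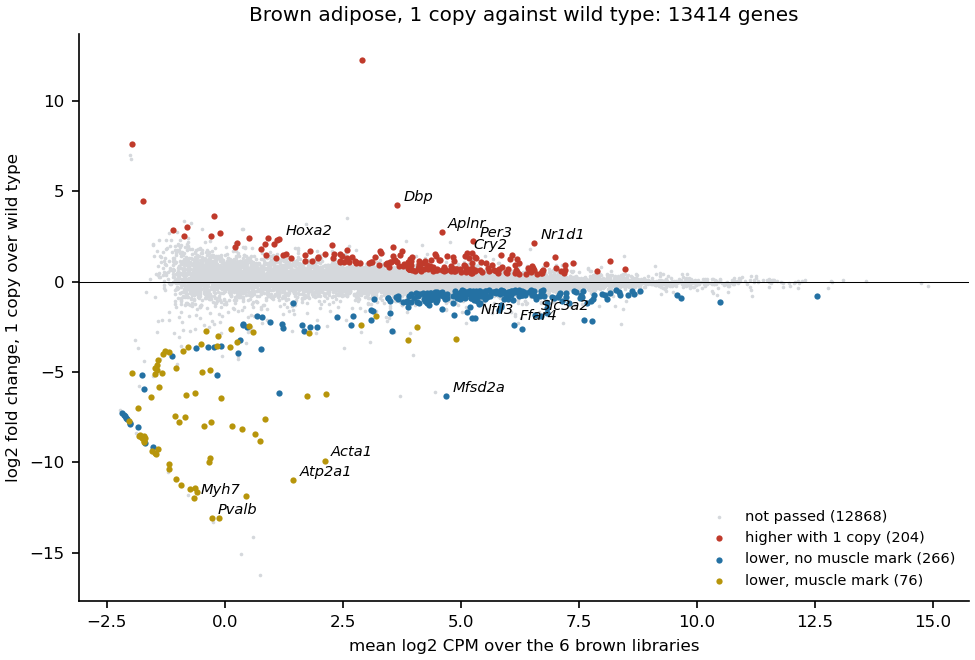
Log2 fold change (1 copy over wild type) against mean log2 CPM over the 6 brown libraries for the 13414 genes tested, with the 204 higher genes, the 266 lower genes without and the 76 lower genes with the muscle mark coloured. The lowest points carry the mark, Mfsd2a is the lowest labelled gene without it, and the topmost point is Cre, which had no count in wild type libraries.

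Cre itself, counted on a sequence added by the authors, had 606 and 444 counts in the 1-copy libraries and 0 and 0 in wild type libraries, as the genotype labels have it (at least 521-fold higher with 1 copy, wild type set at 3 counts together, adjusted p = 0.0485). Of the genes next to Ucp1, Tbc1d9, a Rab GTPase-activating protein gene, was at 14.2 and 13.4 CPM with 1 copy and 8.04 and 9.14 CPM in wild type libraries (0.68 ± 0.15, adjusted p = 0.0449). Elmod2, which encodes a regulator of Arf GTPases, was at 71.1 and 74.7 CPM with 1 copy and 35.0 and 65.4 CPM in wild type libraries and did not pass (0.53 ± 0.28, adjusted p = 0.349). Tbc1d9 failed in 5 of the 6 fits that left out 1 library (adjusted p up to 0.314), and Cre in 4 of them (up to 0.289).

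Clock genes changed in both directions. Of 19 tested genes of the core loop 5 rose (Cry2, Bhlhe41, Nr1d2, Per3 and Nr1d1) and 1 fell (Npas2), and of 10 output genes 3 rose (Dbp, Hlf and Tef) and 1 fell (Nfil3). That is 31.6% of the core list and 40% of the outputs, against 4.07% of all genes tested. Median log2 fold changes were -0.07 and -0.08, with members on both sides of 0. No gene of either list carried the muscle mark. The promoters of 4 of these genes follow, as windows of 250 bases before to 50 bases after the transcription start in RefSeq on GRCm38.p6 (mm10 is another name of the assembly GRCm38), 5′ to 3′ on the gene's strand. They are shown because each holds an exact copy of a clock element, set in capitals: the D-box TTATGTAA, the E-box CACGTG bound by BMAL1 with CLOCK or NPAS2, or the element TAGGTCA bound by ROR and NR1D proteins, each searched on both strands. Of 14 clock genes with a window, 10 had passed, and 4 of these held a match (those shown) while 6 did not (Dbp, Hlf, Cry2, Nr1d1, Nr1d2 and Npas2). Of the 4 that had not passed, 3 held one (Cry1, Per1 and Arntl).
Per3 (chr4:151044616-151044915, minus strand): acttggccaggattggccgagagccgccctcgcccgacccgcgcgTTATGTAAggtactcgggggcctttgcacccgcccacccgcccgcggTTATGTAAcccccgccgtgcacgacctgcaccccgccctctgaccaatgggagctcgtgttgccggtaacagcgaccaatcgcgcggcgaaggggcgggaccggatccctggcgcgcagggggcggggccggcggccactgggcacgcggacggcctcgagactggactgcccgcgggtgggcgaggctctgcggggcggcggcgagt
Nfil3 (chr13:52980990-52981289, minus strand): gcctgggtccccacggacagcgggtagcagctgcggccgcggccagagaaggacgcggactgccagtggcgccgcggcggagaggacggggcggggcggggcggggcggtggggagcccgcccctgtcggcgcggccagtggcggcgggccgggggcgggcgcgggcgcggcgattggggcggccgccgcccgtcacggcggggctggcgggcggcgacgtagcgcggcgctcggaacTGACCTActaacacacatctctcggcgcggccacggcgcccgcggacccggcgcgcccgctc
Bhlhe41 (chr6:145865371-145865670, minus strand): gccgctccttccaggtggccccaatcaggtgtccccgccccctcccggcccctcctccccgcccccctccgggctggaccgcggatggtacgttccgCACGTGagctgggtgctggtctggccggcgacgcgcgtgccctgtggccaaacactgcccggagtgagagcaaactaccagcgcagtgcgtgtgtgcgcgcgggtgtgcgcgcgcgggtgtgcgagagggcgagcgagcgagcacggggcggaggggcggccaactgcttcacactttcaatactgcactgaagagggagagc
Tef (chr15:81802423-81802722, plus strand): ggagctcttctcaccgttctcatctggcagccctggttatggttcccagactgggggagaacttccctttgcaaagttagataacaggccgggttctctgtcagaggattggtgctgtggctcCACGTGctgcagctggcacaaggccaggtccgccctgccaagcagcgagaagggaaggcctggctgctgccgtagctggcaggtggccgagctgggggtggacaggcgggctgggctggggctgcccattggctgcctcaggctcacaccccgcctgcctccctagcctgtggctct
Per3 holds 2 D-boxes, which begin 205 and 158 bases before its start, and Nfil3 holds the ROR element, on the reverse strand, 12 bases before that transcript's start, which lies 1839 bases inside the 5′ end of the gene in RefSeq. An E-box begins 153 bases before the start of Bhlhe41 and 127 before that of Tef, whose second window (chr15:81811164-81811463, not shown) holds another. Over all 32851 RefSeq promoter windows of this length, 0.938% hold the D-box, 7.15% the E-box and 2.61% the ROR element. A match describes these letters only, and binding was not measured.

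Among the outputs, Dbp was at 65.8 and 75.6 CPM with 1 copy and 2.85 and 4.51 CPM in wild type libraries, the largest rise by the naming rule (4.22 ± 0.20, adjusted p = 0.000446). Both 1-copy libraries were far above both wild type libraries, and the 2-copy libraries were at 7.48 and 7.37 CPM, between the other groups and nearer to wild type (log2 fold change of 2 copies over wild type 0.97). Tef was at 215 and 213 CPM with 1 copy and 72.2 and 90.3 CPM in wild type libraries (1.40 ± 0.14, adjusted p = 0.0042). Hlf was at 54.7 and 56.3 CPM with 1 copy and 19.6 and 22.1 CPM in wild type libraries (1.41 ± 0.11, adjusted p = 0.00229). So all 3 activators of the D-box were higher with 1 copy in every library. Their counterpart Nfil3 was at 19.9 and 17.8 CPM with 1 copy and 75.0 and 74.5 CPM in wild type libraries (-1.99 ± 0.11, adjusted p = 0.000519). Of the other listed outputs, Nampt, the enzyme that limits NAD synthesis from nicotinamide, was at 468 and 477 CPM with 1 copy and 332 and 394 CPM in wild type libraries and did not pass (adjusted p = 0.137). Usp2, a deubiquitinase that cycles in many tissues, overlapped between the groups, at 37.6 and 28.5 CPM with 1 copy and 31.4 and 59.6 CPM in wild type libraries.

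In the repressor arm, Per3 was at 103 and 92.5 CPM with 1 copy and 14.3 and 26.1 CPM in wild type libraries (2.25 ± 0.27, adjusted p = 0.0162). Cry2, a cryptochrome that shuts off BMAL1, was at 70.5 and 67.0 CPM with 1 copy and 22.1 and 24.0 CPM in wild type libraries (1.57 ± 0.11, adjusted p = 0.00154). Bhlhe41, a further repressor of the loop, was at 19.1 and 21.2 CPM with 1 copy and 4.85 and 7.15 CPM in wild type libraries (1.73 ± 0.21, adjusted p = 0.00936). None of these 3 overlapped between the groups, as held for 7260 of the 13414 genes tested. For Per3 the naming rule for the largest rises required it. Nr1d1, a REV-ERB receptor that represses Arntl, was at 195 and 223 CPM with 1 copy and 55.1 and 39.6 CPM in wild type libraries (2.15 ± 0.36, adjusted p = 0.0485). Its sister Nr1d2 was at 102 and 101 CPM with 1 copy and 35.2 and 36.0 CPM in wild type libraries (1.51 ± 0.19, adjusted p = 0.013). In the 2-copy libraries Nr1d1 was at 117 and 59.7 CPM, far apart. It lost the call in an edgeR fit with a predicted muscle share subtracted, described with the glucose genes below (adjusted p = 0.0528).

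The other Per and Cry genes did not follow. Per1 was at 87.0 and 73.4 CPM with 1 copy and 154 and 191 CPM in wild type libraries (-1.11 ± 0.26, adjusted p = 0.084). Per2 was at 35.2 and 27.7 CPM with 1 copy and 72.6 and 79.0 CPM in wild type libraries (-1.27 ± 0.78, adjusted p = 0.445). Both were lower in every 1-copy library, without passing, while Cry1 overlapped, at 19.6 and 16 CPM with 1 copy and 19.5 and 29.7 CPM in wild type libraries. In the activator arm Npas2 was at 2.31 and 2.34 CPM with 1 copy and 9.58 and 8.57 CPM in wild type libraries (-1.96 ± 0.21, adjusted p = 0.00573). Arntl was at 18.6 and 11.6 CPM with 1 copy and 29.7 and 28.4 CPM in wild type libraries (adjusted p = 0.178). Clock was at 76.3 and 75.9 CPM with 1 copy and 96.8 and 98.4 CPM in wild type libraries (adjusted p = 0.0685). These 2 were lower in both 1-copy libraries without passing. Noct, a clock-linked phosphatase of NADP(H) known as Nocturnin, is not in the lists and was picked after its values were seen: it was at 86.1 and 89.1 CPM with 1 copy and 326 and 462 CPM in wild type libraries (-2.17 ± 0.17, adjusted p = 0.00229). Dbp, Nfil3, Cry2, Hlf and Tef kept the call whichever of the 6 libraries was omitted. Without 1-copy replicate 1 or 2, Per3, Nr1d1, Nr1d2, Bhlhe41 and Npas2 were lost (adjusted p 0.081 to 0.262 and 0.0609 to 0.23), and Nr1d1 and Nr1d2 also without wild type replicate 1 (0.163 and 0.0848) or 2 (0.168 and 0.0644). In the reference annotation, exons of Dbp, Nr1d1, Cry2, Bhlhe41, Tef and Arntl share bases with a gene on the opposite strand (Sphk2 for Dbp, Thra for Nr1d1), and the strand setting of the counting is not given in the sources used here. The hour of death is not given beyond morning, and its part in these values was not tested.

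**Figure D3:**
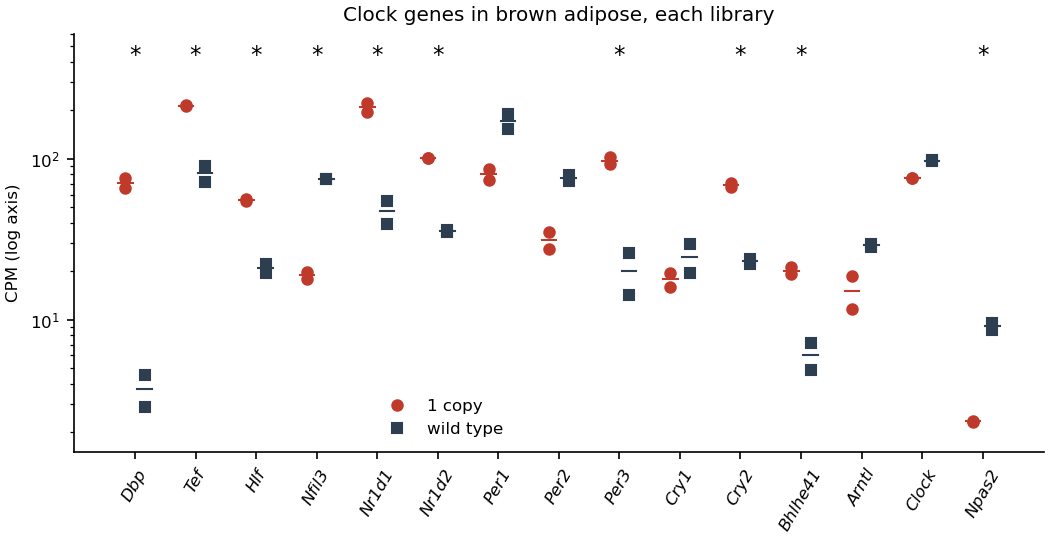
CPM (log axis) of 15 clock genes in each brown library, 1 copy as circles and wild type as squares, with group means as bars and an asterisk over the 10 genes with an adjusted p under 0.05. Dbp, Tef, Hlf, Nr1d1, Nr1d2, Per3, Cry2 and Bhlhe41 are higher and Nfil3 and Npas2 lower in both 1-copy libraries.

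White adipose libraries of the same genotypes measured these genes apart, and the labels do not say whether they came from the same mice. In a fit of all 12 libraries, 49.1% of 15559 genes passed for 1 copy against wild type in white adipose (26.8% higher, 22.3% lower) and 32.6% for the difference of this effect between the depots. Among the 2 white 1-copy libraries, replicate 1 also held muscle RNA (3569 CPM summed over the list, against 132.9 CPM in its partner). Ucp1 counts lay far apart within both white groups, at 2400 and 28 with 1 copy and 340 and 4267 in wild type libraries. With 1 copy in white adipose, Dbp rose (2.68, adjusted p = 5.37e-05), Nfil3 fell (-1.72, adjusted p = 0.00095), Npas2 fell (-1.73, adjusted p = 0.00035) and Tef rose (0.73, adjusted p = 0.0111). Cry2 (0.30, adjusted p = 0.111), Per3 (0.57, adjusted p = 0.1) and Hlf (0.19, adjusted p = 0.37) did not pass in white adipose, and for these 3 the difference between the depots passed (adjusted p = 0.00147, 0.00821 and 0.00333).

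Hox genes set the position of a tissue along the body axis and keep that pattern in adult fat depots. Of 23 tested 5 rose and none fell, all in the HoxA cluster on chromosome 6, and the median log2 fold change of the 23 was 0.59. That is 21.7% of the list, against 1.52% of all genes tested that were higher. Hoxa2 was at 4.93 and 3.98 CPM with 1 copy and 0.856 and 0.851 CPM in wild type libraries (2.38 ± 0.30, adjusted p = 0.00989). Hoxa3 was at 24.0 and 21.9 CPM with 1 copy and 6.62 and 9.61 CPM in wild type libraries (1.48 ± 0.19, adjusted p = 0.0113). Both genes were higher in each 1-copy library than in either wild type library, as the naming rule for the largest rises required of Hoxa2. Hoxa4 was at 25.5 and 27.0 CPM with 1 copy and 11.3 and 15.9 CPM in wild type libraries (0.94 ± 0.18, adjusted p = 0.0329). Hoxa9, low in all libraries, is outside the naming rule and was at 1.31 and 1.11 CPM with 1 copy and 0.114 and 0.158 CPM in wild type libraries (3.05 ± 0.65, adjusted p = 0.0431). Hoxa5 was at 60.2 and 47.9 CPM with 1 copy and 16.2 and 26.7 CPM in wild type libraries and did not pass (1.32 ± 0.28, adjusted p = 0.0617). In the 2-copy libraries Hoxa2 was at 2.63 and 2.23 CPM and Hoxa3 at 11.6 and 12.1 CPM, between the other groups.

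Other patterning genes were mixed, and 1 of 13 rose (7.69%, against 1.52% of all genes tested). This was Meox2, a homeobox gene, at 27.5 and 28.7 CPM with 1 copy and 16.5 and 15.1 CPM in wild type libraries (0.84 ± 0.14, adjusted p = 0.0206). Lhx8, a homeobox gene that marks brown fat, was at 6.62 and 7.20 CPM with 1 copy and 2.74 and 2.96 CPM in wild type libraries and missed the threshold (adjusted p = 0.0536). Tbx15, a T-box gene of dorsal and subcutaneous depots, was lower without passing, at 2.31 and 3.86 CPM with 1 copy and 9.30 and 5.26 CPM in wild type libraries (adjusted p = 0.162). Hoxc9 and Hoxc10, which mark white depots, were at or near 0 in all 4 libraries. Without 1-copy replicate 1 the log2 fold changes of Hoxa2, Hoxa3 and Hoxa4 were 2.21, 1.42 and 0.98. Without 1-copy replicate 2 they were 2.52, 1.55 and 0.90, so the sizes stayed close while the calls did not. The Hox calls rest on the 1-copy libraries: 0 Hox genes passed without either of them, 2 without wild type replicate 1 and 6 without wild type replicate 2. Without 1-copy replicate 1 or 2, Hoxa2, Hoxa3, Hoxa4 and Meox2 had adjusted p 0.117 to 0.213 and 0.0602 to 0.191, and Hoxa4 also failed without wild type replicate 1 (0.063). Exons of Hoxa3 and Hoxa4 share bases with antisense RNAs, whose reads cannot be told apart without the strand setting.

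**Figure D4:**
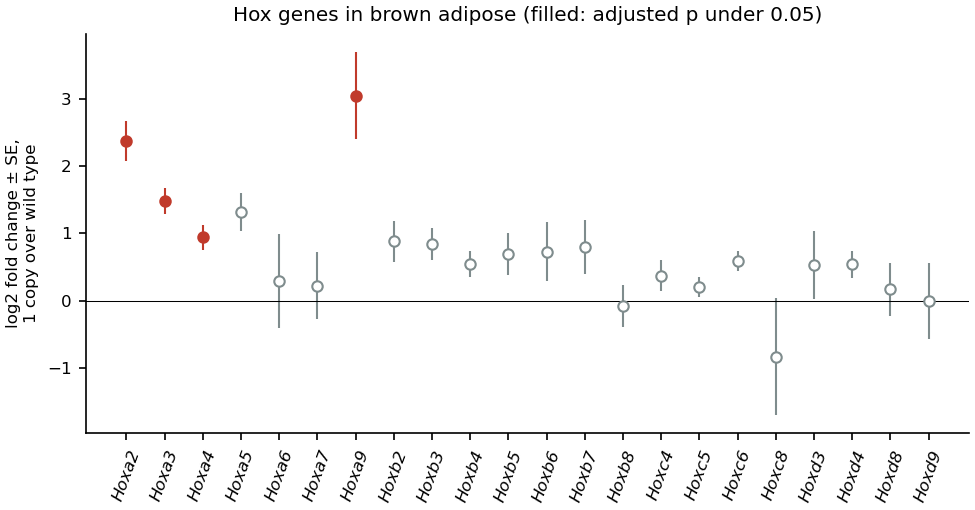
Log2 fold change (1 copy over wild type) ± SE of 22 tested Hox genes, ordered by cluster and number, filled where the adjusted p is under 0.05. The 4 filled points are Hoxa2, Hoxa3, Hoxa4 and Hoxa9, and 19 of the 22 are above 0.

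Heat production genes gave no call. Of 32 thermogenic genes 0 passed with edgeR (5 at an unadjusted p under 0.05, 4 with DESeq2), and their median log2 fold change was -0.04. Of all genes tested 4.07% passed, so that 0 calls in a list of this length says little of its members. Ucp1 overlapped between the groups, at 6177 and 4391 CPM with 1 copy and 7474 and 5993 CPM in wild type libraries (-0.35 ± 0.25, adjusted p = 0.477). Dio2, the deiodinase that makes active thyroid hormone in brown fat, was at 169 and 72.8 CPM with 1 copy and 548 and 677 CPM in wild type libraries (-2.34 ± 0.43, adjusted p = 0.0666). Ppargc1a, the coactivator that drives mitochondrial genes, was at 88.5 and 93.5 CPM with 1 copy and 155 and 293 CPM in wild type libraries (-1.30 ± 0.34, adjusted p = 0.117). Both were lower in every 1-copy library, without passing. Cidea, Cox8b and Kcnk3 differed by less, with log2 fold changes of 0.04, -0.21 and -0.17.

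The mitochondrial machinery was close between the groups. None of 75 nuclear-encoded respiratory chain genes passed with edgeR (2 at an unadjusted p under 0.05, 2 with DESeq2), nor did any of 24 genes of fatty acid oxidation (1 and 0) or of 75 mitochondrial ribosomal proteins (4 and 1). Their medians were -0.03, -0.07 and 0.00. Summed over the respiratory chain list, the level was 60860 and 60100 CPM with 1 copy and 58020 and 61190 CPM in wild type libraries. The lists for branched-chain amino acid breakdown (20 genes), the proteasome (37) and mitochondrial dynamics (21) had 0 calls likewise, with 2, 1 and 3 genes at an unadjusted p under 0.05 and 1, 0 and 1 with DESeq2. The share that passed over all genes tested was 4.07%, so that 0 calls in the shorter lists says little of their members. Of 79 cytosolic ribosomal protein genes 1 fell, Rpl3l, the muscle form of RPL3, which carries the muscle mark (0.250 and 0.176 CPM with 1 copy, 10.4 and 3.81 CPM in wild type libraries, adjusted p = 0.032). Upstream, 1 of 20 genes of adrenergic and cAMP signalling fell (5%, against 2.55% of all genes tested). This was Adcy3, an adenylyl cyclase, at 235 and 214 CPM with 1 copy and 393 and 366 CPM in wild type libraries (-0.76 ± 0.10, adjusted p = 0.0117). It was above wild type in the 2-copy libraries, at 601 and 627 CPM, and lost the call without 1-copy replicate 1 or 2 (adjusted p = 0.116 and 0.131).

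Lipid transport and storage genes fell in single members. Mfsd2a, a carrier of lysophospholipids with long polyunsaturated chains, was at 1.5 and 1.58 CPM with 1 copy and 108 and 142.7 CPM in wild type libraries, the largest fall without the muscle mark by the naming rule (-6.34 ± 0.36, adjusted p = 0.00229). In the 2-copy libraries it was at 65.2 and 107 CPM, and the part of muscle RNA in its fall was not tested. Plin2, the coat protein of small lipid droplets, was at 506 and 509 CPM with 1 copy and 1111 and 807 CPM in wild type libraries (-0.92 ± 0.15, adjusted p = 0.0202). These were the 2 that fell of 25 genes of lipolysis, lipid droplets and fatty acid uptake (8%, against 2.55% of all genes tested), and 0 rose (median -0.14). Lpl, the lipase that frees fatty acids from circulating triglyceride, was at 3460.0 and 3574 CPM with 1 copy and 4760.0 and 4268 CPM in wild type libraries and did not pass (adjusted p = 0.147). Cd36, a fatty acid transporter, and Pnpla2, the first lipase of lipolysis, had log2 fold changes of 0.06 and -0.21. Ffar4, a receptor for long-chain fatty acids also called GPR120, was at 21.1 and 30.8 CPM with 1 copy and 119.9 and 148 CPM in wild type libraries (-2.37 ± 0.21, adjusted p = 0.00431), and at 106 and 89.7 CPM with 2 copies. Mfsd2a and Ffar4 both kept the call whichever of the 6 libraries was omitted.

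In triglyceride synthesis 2 of 15 genes fell (13.3%, against 2.55% of all genes tested) and 0 rose. Pck1, which makes glycerol phosphate from pyruvate in adipocytes, was at 3746 and 4259.7 CPM with 1 copy and 7739.6 and 6132 CPM in wild type libraries (-0.79 ± 0.15, adjusted p = 0.0306). Dgat1, which adds the last acyl chain, was at 251 and 268 CPM with 1 copy and 384 and 390.1 CPM in wild type libraries (-0.58 ± 0.10, adjusted p = 0.0233). In sterol synthesis 3 of 23 fell (13%) and 0 rose, with a median of -0.26. Hmgcs1, an early enzyme of the mevalonate pathway, was at 284 and 273 CPM with 1 copy, against 423 and 382 CPM in wild type libraries and 555 and 533 CPM with 2 copies (-0.53 ± 0.10, adjusted p = 0.0297). Pmvk, a kinase of the same pathway, was at 78.1 and 80.0 CPM with 1 copy, against 108 and 109 CPM in wild type libraries and 86.0 and 80.7 CPM with 2 copies (-0.45 ± 0.09, adjusted p = 0.0384). In fatty acid synthesis 1 of 20 rose (5%), the regulator Srebf1, at 516 and 424 CPM with 1 copy and 321 and 244 CPM in wild type libraries (0.73 ± 0.15, adjusted p = 0.0422). Plin2 and the 5 genes named in these 3 pathways lost the call without 1-copy replicate 1 or 2 (adjusted p 0.204 to 0.321 and 0.131 to 0.242). Hmgcs1, Pck1 and Pmvk lost it also without wild type replicate 1 (up to 0.066), Srebf1 without wild type replicate 2 (0.0686), and Pmvk and Srebf1 without either 2-copy library (up to 0.0651 and 0.0659).

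Of 29 glucose genes 2 fell (6.9%), of 17 glycogen genes 3 (17.6%) and of 26 insulin signalling genes 2 (7.69%), against 2.55% of all genes tested, so that each list held few calls. Pfkfb3, which makes the activator of phosphofructokinase, was at 909 and 926 CPM with 1 copy and 2024 and 1951 CPM in wild type libraries (-1.12 ± 0.10, adjusted p = 0.00337), with no overlap. It and Slc16a3, the lactate exporter MCT4 (0.500 and 0.410 CPM with 1 copy, 3.31 and 1.67 CPM in wild type libraries, adjusted p = 0.0427), were the 2 glucose genes that fell. Slc16a3 was at 1.92 and 1.25 CPM with 2 copies. It is also a muscle gene, its wild type ratio of replicate 1 to 2 was 1.98, and its log2 fold change was -2.41. An alternative fit subtracted a predicted muscle share from each brown library's counts, and there it was -1.25 (adjusted p = 0.226). The share came from the white library richest in muscle RNA and its partner. It held every gene higher in the former, scaled to the muscle level, and could take all of a gene's counts. Of the 3 glycogen genes 2, Pygm and Ppp1r3a, are muscle genes of glycogen use that carry the mark. Pygm was at 8.12 and 8.55 CPM with 1 copy and 107 and 47.4 CPM in wild type libraries (-3.20 ± 0.43, adjusted p = 0.0282), and Ppp1r3a was at 0 in both 1-copy libraries, against 2.91 and 1.70 CPM in wild type libraries (at least 23.5-fold lower with 1 copy, adjusted p = 0.0211). The third, Ppp1r3c, which brings phosphatase to glycogen in fat and liver, was at 160.2 and 135 CPM with 1 copy and 334 and 294 CPM in wild type libraries (-1.09 ± 0.18, adjusted p = 0.0266). Of the 2 insulin signalling genes, Foxo1, the transcription factor that insulin holds out of the nucleus, was at 94.0 and 90.7 CPM with 1 copy and 192 and 196 CPM in wild type libraries (-1.07 ± 0.11, adjusted p = 0.00431). Sgk1, a kinase induced by serum and glucocorticoid, was at 67.3 and 61.7 CPM with 1 copy, against 124 and 164 CPM in wild type libraries and 175 and 145 CPM with 2 copies (-1.16 ± 0.16, adjusted p = 0.013). All of these lost the call without 1-copy replicate 1 (adjusted p 0.0692 to 0.271), and all but Pfkfb3 without 1-copy replicate 2 (0.0602 to 0.247). Slc16a3, Ppp1r3a and Ppp1r3c lost it without wild type replicate 1 (0.0529 to 0.114), Ppp1r3c without wild type replicate 2 (0.0593), and Pygm and Slc16a3 without either 2-copy library (up to 0.054 and 0.0556).

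In the integrated stress response, which cells use when amino acids or protein folding fall short, 3 of 39 members fell (7.69%, against 2.55% of all genes tested), and 0 rose (median -0.06). Slc3a2, the heavy chain shared by several amino acid exchangers, was at 37.3 and 43.1 CPM with 1 copy, against 150.4 and 133 CPM in wild type libraries and 158 and 144 CPM with 2 copies (-1.81 ± 0.12, adjusted p = 0.00147). Atf4, which encodes the central activator of that response, was at 96.5 and 92.2 CPM with 1 copy, against 203 and 228 CPM in wild type libraries and 186 and 186 CPM with 2 copies (-1.19 ± 0.10, adjusted p = 0.0024). Slc38a2, the glutamine carrier SNAT2, was at 100.4 and 81.7 CPM with 1 copy and 168 and 167 CPM in wild type libraries (-0.88 ± 0.12, adjusted p = 0.0126). Other well-known targets of ATF4 did not pass: Asns had a log2 fold change of -0.19, Ddit3 of 0.20 and Trib3 of 0.59. Slc3a2 and Atf4 kept the call whichever of the 6 libraries was omitted, and Slc38a2 failed without 1-copy replicate 1 or 2 (adjusted p = 0.0692 and 0.116). Of 26 genes of the unfolded protein response 1 fell (3.85%, against 2.55% of all genes tested). This was Syvn1, an ubiquitin ligase of the endoplasmic reticulum (-0.60 ± 0.10, adjusted p = 0.0222), and it failed in the same 2 fits.

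Heat shock genes were lower in the 1-copy libraries for 18 of 18 members (median -0.77), yet 1 passed (5.56%, against 4.07% of all genes tested). That gene, Bag3, a cochaperone of HSP70, was at 53.8 and 49.9 CPM with 1 copy and 192 and 200.2 CPM in wild type libraries (-1.92 ± 0.24, adjusted p = 0.0157), and it failed in 4 of the 6 fits that left out 1 library (up to 0.145). Hspa1a, the inducible HSP70, was at 2.87 and 1.64 CPM with 1 copy and 124 and 235 CPM in wild type libraries without passing (-6.32 ± 1.72, adjusted p = 0.172). Its 2-copy libraries lay far apart, at 1.08 and 29.1 CPM, and their spread is pooled into the test. Without 2-copy replicate 1 or 2, 11 heat shock genes passed in each fit. Without any single 1-copy or wild type library, 0 did. Early response genes, which rise within minutes of a stimulus or of tissue handling, gave 1 rise and 1 fall of 29 (6.9% passed, median -0.47). Myc was at 12.4 and 7.79 CPM with 1 copy and 3.65 and 3.4 CPM in wild type libraries (1.52 ± 0.28, adjusted p = 0.0278). Maff was at 3.94 and 3.16 CPM with 1 copy and 10.6 and 19.5 CPM in wild type libraries (-2.10 ± 0.31, adjusted p = 0.0169). Nr4a3, an orphan receptor induced by adrenergic signals, was at 3.81 and 2.05 CPM with 1 copy and 13.7 and 81.4 CPM in wild type libraries (adjusted p = 0.166). Egr1 was at 94.0 and 20.9 CPM with 1 copy and 11.5 and 16.3 CPM in wild type libraries (adjusted p = 0.343). For these 2 genes the libraries of 1 group lay far apart.

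Of 20 genes of the p53 response 2 rose (10%, against 1.52% of all genes tested), and 0 passed in 3 of the 6 fits that left out 1 library. Plk2, a polo-like kinase, was at 25.4 and 19.7 CPM with 1 copy and 10.1 and 12.8 CPM in wild type libraries (0.97 ± 0.18, adjusted p = 0.0278). Bbc3, the death protein PUMA, was at 13.6 and 11.5 CPM with 1 copy and 6.67 and 6.49 CPM in wild type libraries (0.93 ± 0.17, adjusted p = 0.0293). Cdkn1a, the p21 inhibitor and a leading target of p53, lay the other way without passing, at 179 and 114 CPM with 1 copy and 365 and 390.1 CPM in wild type libraries (adjusted p = 0.0888). Of 26 interferon-stimulated genes 1 rose (3.85%), Rsad2, the antiviral enzyme viperin, at 51.4 and 35.7 CPM with 1 copy and 17.1 and 17.2 CPM in wild type libraries (1.34 ± 0.19, adjusted p = 0.0147). Of the 26 genes 20 were above 0 and 6 below on the log2 scale, with a median of 0.24. With edgeR 9 had an unadjusted p under 0.05, and 2 passed with DESeq2. Isg15 and Ifit1, both below 0, had log2 fold changes of -0.43 and -0.28. Without 1-copy replicate 1 all of Plk2, Bbc3, Rsad2, Myc and Maff lost the call, and all but Rsad2 without 1-copy replicate 2 (adjusted p up to 0.279 and 0.131). Plk2, Bbc3, Rsad2 and Myc lost it without wild type replicate 1 (up to 0.0692), and Rsad2 and Myc without wild type replicate 2 (0.0535 and 0.0637).

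Of 18 tested vessel genes 3 rose (16.7%, against 1.52% of all genes tested). Aplnr, the apelin receptor of sprouting endothelium, was at 86.3 and 56.7 CPM with 1 copy and 12.7 and 8.54 CPM in wild type libraries (2.77 ± 0.34, adjusted p = 0.0198, and 4.18 with the muscle share subtracted), well apart. Erg, an endothelial transcription factor, and Tek, the angiopoietin receptor TIE2, moved by less (0.64 ± 0.13 and 0.45 ± 0.10, adjusted p = 0.0392 and 0.0434). General endothelial genes were near equal, with log2 fold changes of 0.03 for Cdh5 and 0.27 for Pecam1, neither of which passed. The summed level of the endothelial list was 2046 and 1832 CPM with 1 copy and 1643 and 1728 CPM in wild type libraries. Aplnr failed without either wild type library or 1-copy replicate 1 (up to 0.0799), Erg in 5 and Tek in 6 of the 6 fits that left out 1 library (up to 0.321 and 0.333).

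Among immune markers 1 gene passed. Of 19 macrophage and dendritic cell genes 1 rose (5.26%, against 1.52% of all genes tested). This was the chemokine receptor Cx3cr1, at 4.62 and 2.93 CPM with 1 copy and 0.799 and 0.945 CPM in wild type libraries (2.09 ± 0.40, adjusted p = 0.0327). With the muscle share subtracted, which can take all of a gene's counts, its log2 fold change was 9.15. Adgre1, which encodes F4/80, and Mrc1 had log2 fold changes of 0.48 and 0.03. Of 12 tested lymphocyte genes 12 were above 0 on the log2 scale with a median of 0.80, and 0 passed (5 at an unadjusted p under 0.05, 0 with DESeq2). Their summed level was 24.49 and 25.42 CPM with 1 copy and 11.24 and 16.03 CPM in wild type libraries. Of 7 MHC class II genes 7 were above 0 on the log2 scale with a median of 0.51, and 0 passed with edgeR (4 at an unadjusted p under 0.05, 1 with DESeq2). Of 12 nerve and Schwann cell genes 1 rose (8.33%), S100b (0.54 ± 0.12, adjusted p = 0.0463). Of 29 matrix genes 1 fell (3.45%, against 2.55% of all genes tested), the protease Adamts1 (-1.16 ± 0.16, adjusted p = 0.0123). Cx3cr1 and S100b failed in 4 of the 6 fits that left out 1 library (up to 0.28 and 0.318), and Adamts1 in 2 (up to 0.108). Hbb-bs, an adult beta globin gene, overlapped between the groups, at 142 and 79.6 CPM with 1 copy and 265 and 138.1 CPM in wild type libraries.

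The other largest rises under the naming rule were scattered over functions. Sox4, a transcription factor of progenitor cells, was at 13.1 and 9.95 CPM with 1 copy and 2.85 and 2.77 CPM in wild type libraries (2.03 ± 0.25, adjusted p = 0.00936). Amer1, a regulator of WNT signalling, was at 29.6 and 21.7 CPM with 1 copy and 7.19 and 6.49 CPM in wild type libraries (1.91 ± 0.21, adjusted p = 0.00668). Ryr2, a calcium release channel, was at 3.50 and 5.27 CPM with 1 copy and 1.37 and 0.788 CPM in wild type libraries (2.06 ± 0.40, adjusted p = 0.0331). It was the 1 of 13 genes of creatine and calcium cycling that rose (7.69%, against 1.52% of all genes tested). All 3 were higher in both 1-copy libraries, which the naming rule for the largest rises requires. Il16, which encodes a chemoattractant of lymphocytes (1.76 ± 0.29, adjusted p = 0.0214), and Ttc30a1, a cilium gene (2.29 ± 0.31, adjusted p = 0.0123), completed the list. With a predicted muscle share subtracted, the log2 fold change was 10.78 for Il16 (adjusted p = 0.00234) and 4.68 for Sox4, which lost the call (adjusted p = 0.0536). A gene can lose all its counts in a group that way, and its fitted value is then no size. Nr2f2, the nuclear receptor COUP-TFII, was the 1 of 21 receptor and coactivator genes (4.76%) that rose (0.73 ± 0.14, adjusted p = 0.032). Without 1-copy replicate 1 all 6 of these lost the call (adjusted p 0.0735 to 0.225), and without 1-copy replicate 2 all but Sox4 and Amer1 (0.108 to 0.226). Ryr2 lost it also without wild type replicate 2 (0.0791) and Nr2f2 without wild type replicate 1 (0.074).

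The largest falls without the muscle mark can be set beside the 2-copy libraries, whose muscle level was as low as with 1 copy and which share the fit and its spread. Mfsd2a and Ffar4 were closer to the wild type level there, as given above, and so was Vdr, the vitamin D receptor. Vdr was at 1.81 and 2.87 CPM with 1 copy, against 9.81 and 14.3 CPM in wild type libraries and 9.76 and 8.56 CPM with 2 copies (-2.37 ± 0.29, adjusted p = 0.00925). Dusp8, a phosphatase of stress kinases, lay between, at 4.31 and 4.92 CPM with 1 copy, against 23.1 and 38.2 CPM in wild type libraries and 16.5 and 7.57 CPM with 2 copies (-2.74 ± 0.45, adjusted p = 0.0385). The other 5 were low in all 4 transgenic libraries and higher in wild type replicate 1 than in replicate 2, as the muscle list was. Smyd1, a methyltransferase of striated muscle, was at 1.37 and 1.52 CPM with 1 copy, against 12.6 and 5.01 CPM in wild type libraries and 0.838 and 1.04 CPM with 2 copies (-2.58 ± 0.46, adjusted p = 0.0306). Scn4b (-2.72 ± 0.53), Rtn2 (-2.49 ± 0.40), Pkia (-2.38 ± 0.42) and Asb2 (-2.35 ± 0.40) fell at adjusted p = 0.0431, 0.0214, 0.0266 and 0.0238. They had wild type ratios of replicate 1 to 2 of 2.73, 2.18, 2.15 and 1.35, against 2.5 for Smyd1. With a predicted muscle share subtracted from the counts, all 5 lost the call, with log2 fold changes of -2.41 for Scn4b, -1.43 for Smyd1, -0.55 for Rtn2, -1.37 for Pkia and -0.88 for Asb2 (adjusted p 0.0697 to 0.458). Muscle RNA and genotype cannot be told apart for genes that follow that pattern. For the other falls the part of muscle RNA was not tested.

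**Figure D5:**
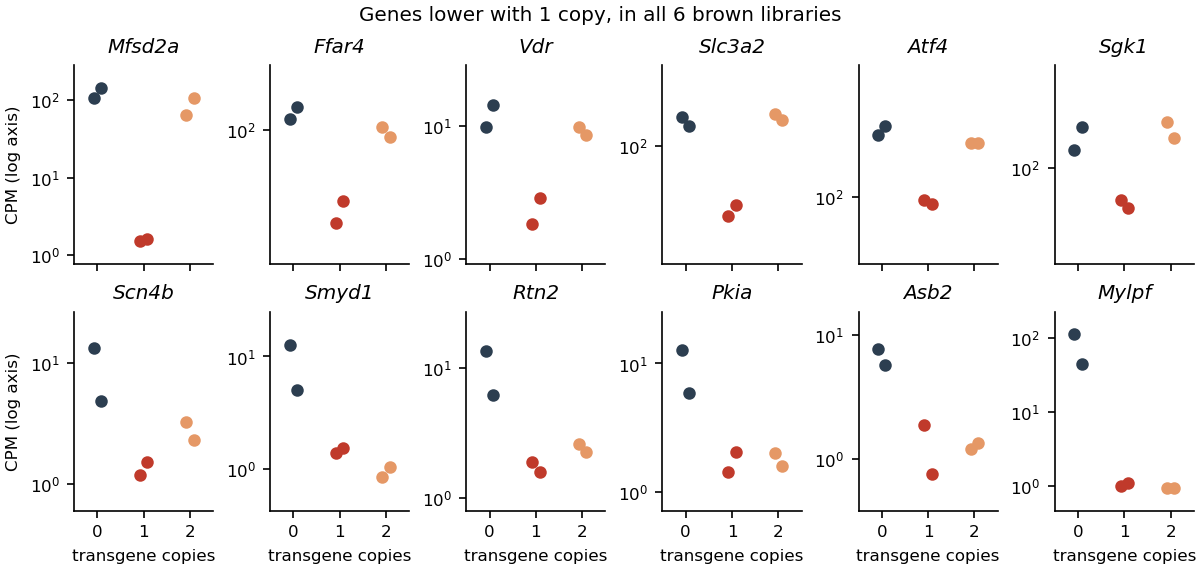
CPM (log axis) of 12 genes that were lower with 1 copy, in the brown libraries with 0, 1 and 2 copies (2 points each). The upper panels (Mfsd2a, Ffar4, Vdr, Slc3a2, Atf4, Sgk1) are low with 1 copy and closer to the 0-copy level with 2 copies, whereas the lower panels (Scn4b, Smyd1, Rtn2, Pkia, Asb2 and the muscle light chain gene Mylpf) are low with 1 and with 2 copies.

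Without 1-copy replicate 1 all of these falls but Mfsd2a and Ffar4 lost the call (adjusted p 0.0692 to 0.315), and without 1-copy replicate 2 all but these and Vdr (0.131 to 0.226). Dusp8 and Asb2 lost it without wild type replicate 1 (0.0669 and 0.0629), Dusp8 without wild type replicate 2 (0.0762), and Scn4b without either 2-copy library (0.0625 and 0.0638). Among the largest falls with the mark, Neb, Mylpf, Tpm2 and Atp2a1 encode parts of the sarcomere or its calcium pump. Mylpf was at 0.999 and 1.11 CPM with 1 copy and 112 and 44.9 CPM in wild type libraries (-6.20 ± 0.63, adjusted p = 0.0198). Atp2a1 was at 0.312 and 0.0585 CPM with 1 copy and 543 and 217 CPM in wild type libraries (-10.98 ± 1.07, adjusted p = 0.0251). Mb, which encodes myoglobin and is also made in brown fat, was at 7.43 and 6.03 CPM with 1 copy, against 49.6 and 27.7 CPM in wild type libraries and 16.3 and 21.6 CPM with 2 copies (-2.51 ± 0.32, adjusted p = 0.0187). All 8 of the largest marked falls failed without 1-copy replicate 1 (0.127 to 0.306) or 2 (0.105 to 0.244). Pvalb, Myh7, Tnnt1 and Mylk2, which encode muscle proteins, passed in all 6 fits. With the mean of the muscle list as a covariate 0 of 13414 genes passed with edgeR (1450 at an unadjusted p under 0.05), in a fit where that mean shared 98.7% of its variance with the split between wild type and transgenic libraries.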

How the data were processed

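Polyadenylated RNA was measured in 12 mouse libraries, prepared by the authors with a stranded mRNA kit, per the labels' protocols. The deposited table holds raw read counts per gene, unnormalized, in 24541 rows. STAR, featureCounts and Subread on mm10 are named in the submitters' processing notes, and versions, annotation and strand setting are not given in the sources used here. If counting ignored strand, overlapping genes share reads. Besides clock and Hox genes this touches other named genes, such as Sox4 (up to 2616 exon bases shared with an opposite-strand gene), Il16 (1084), Adcy3 (921) and Tbc1d9 (819). Groups came from tissue and genotype, and replicate numbers only name libraries.

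From these counts, edgeR 4.0.16 (R 4.3.3, limma 3.58.1) fitted the 6 brown libraries with 3 genotypes, filterByExpr, TMM scaling (factors 0.9756 to 1.037) and a robust two-sided quasi-likelihood test, with Benjamini-Hochberg adjustment over 13414 genes and a threshold of 0.05. The spread was pooled over 3 residual degrees of freedom (common biological coefficient of variation 0.148). SEs are the log2 fold change divided by the square root of F. Intervals were not formed, and bounds at 3 counts cover counting error only. The difference between depots came from 1 fit of all 12 libraries. DESeq2 1.42.0 and 15 other alternatives were tried. The steps were tested on simulated counts of 13220 genes for this comparison. There 81 of 100 genes changed 2-fold and 97 of 100 changed 4-fold were recovered, with 8 false calls among 186. How far these rates hold for the measured libraries was not tested. Promoter windows were read from RefSeq tables with Python 3.11.15 (pandas, matplotlib for figures).

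Named genes are Cre, Ucp1, Tbc1d9 and Elmod2, the 10 largest rises, the 10 largest falls without and the 8 with the muscle mark, and up to 4 called members of each list. For the largest rises and falls a mean log2 CPM of at least 1, groups that did not overlap and a plain symbol were required. Of the genes this rule names, 3 are not reported here. Members and lists were chosen with earlier results of these data known.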

Additional observations from a re-analysis of the deposited data

Results flagged for a closer look

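For 52 named genes that passed in brown adipose, 13 of them with the muscle mark, the effect of 1 copy differed between brown and white adipose by a test of the difference itself (edgeR's quasi-likelihood test of the interaction in the fit of 12 libraries, adjusted p under 0.05, a threshold that 32.6% of 15559 genes passed). Values are the log2 fold change (1 copy over wild type) in brown minus that in white adipose. Among clock genes the difference was 1.56 for Dbp, 1.69 for Per3, 1.41 for Nr1d1, 0.86 for Nr1d2, 1.28 for Cry2, 2.25 for Bhlhe41 and 1.22 for Hlf, all above 0. For the homeobox genes it was 2.72 for Hoxa2, 1.65 for Hoxa3, 2.10 for Hoxa4 and 1.03 for Meox2. In white adipose itself Hoxa2 had a log2 fold change of -0.33 (adjusted p = 0.433) and Hoxa4 of -1.15 (adjusted p = 0.00189).

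In metabolism and signalling the difference was 1.35 for Srebf1, 0.65 for Hmgcs1, -3.48 for Slc16a3, -1.37 for Foxo1, -2.04 for Ffar4, -2.20 for Vdr, -1.74 for Dusp8 and 1.22 for Nr2f2. Among stress and early response genes it was -1.68 for Slc3a2, -1.15 for Atf4, -1.38 for Slc38a2, -1.06 for Syvn1, -1.01 for Bag3, 0.84 for Myc and 2.83 for Rsad2. Among genes of vessels, nerve and other cells it was 2.67 for Aplnr, 0.81 for Erg, 1.09 for Tek, 2.20 for S100b, 2.31 for Sox4, 1.77 for Amer1, 2.52 for Ttc30a1 and -1.28 for Il16. Il16 rose in both depots in this fit, by more in white adipose (3.08, against 1.79 in brown). Hmgcs1 fell in both, also by more in white adipose (-1.17, against -0.53 in brown).

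For genes of the muscle pattern it was -5.25 for Scn4b, -4.70 for Smyd1, -2.84 for Rtn2, -2.40 for Pkia and -4.62 for Asb2. For the marked genes it was -19.80 for Atp2a1, -15.91 for Acta1, -11.44 for Neb, -12.40 for Mylpf, -6.74 for Pygm, -3.92 for Tpm2, -6.90 for Sypl2, -12.90 for Ppp1r3a, -10.23 for Rpl3l, -21.59 for Pvalb, -14.92 for Myh7, -8.25 for Tnnt1 and -11.01 for Mylk2. Where a gene is at 0 in a group its fitted value is no bound. The mark was set from white 1-copy replicate 1, which enters this test, so these 13 are a description. White 1-copy replicate 1 held muscle RNA (3569 CPM over the list, against 132.9 CPM in replicate 2), the opposite of the brown libraries, and its part in these differences was not tested. Nor was that of brown adipocyte RNA, with Ucp1 counts of 340 and 4267 in white wild type libraries and 2400 and 28 in white 1-copy libraries. Mfsd2a was lower with 1 copy in both depots (-6.34 in brown and -3.79 in white adipose), and its difference did not pass (adjusted p = 0.155).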

How the results depend on the processing

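No paired analysis was possible because the labels hold nothing but a library number and tie no 1-copy library to a wild type one. The 546 genes (204 higher, 342 lower, 468 without the muscle mark) became 1021 (392 higher, 629 lower, 937 unmarked) with DESeq2 and 1004 (459, 545 and 976) with all 12 libraries in the fit. They became 85 (23, 62 and 50) when tested against a 1.5-fold change and 0 (0, 0 and 0) with the mean of the muscle list as a covariate, which shares 98.7% of its variance with the split between wild type and transgenic libraries. With a predicted muscle share subtracted, 312 genes were higher and 263 lower, so that 54.3% of calls were higher, against 37.4% as reported. Leaving out 1 library gave 26 to 880 genes, 11 to 351 higher, 15 to 529 lower and 20 to 783 unmarked. Of the 73 named genes that passed, 60 lost the call without 1-copy replicate 1, 54 without 1-copy replicate 2, 24 without wild type replicate 1, 14 without wild type replicate 2, 9 without 2-copy replicate 1 and 10 without 2-copy replicate 2. 13 passed in all 6 fits. The difference of the 1-copy effect between brown and white adipose passed for 5076 genes, 5469 with median-of-ratios scaling and 5092 with a filter on mean CPM, and was not refitted without single libraries.

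With the muscle covariate, log2 fold changes turned sign for Tbc1d9 (-0.34), Per3 (-2.37), Bhlhe41 (-1.22), Tef (-0.37), Hoxa3 (-1.41), Hoxa4 (-1.71), Plk2 (-0.91), Erg (-0.64) and S100b (-0.074), which are above 0 without it, and for Elmod2 (-4.27), which had not passed. They turned above 0 for Scn4b (5.34), Smyd1 (4.71), Rtn2 (3.69), Pkia (3.74), Neb (0.20), Mylpf (1.09), Pygm (3.29), Tpm2 (3.12), Sypl2 (5.36), Mb (2.01), Hmgcs1 (0.28), Pck1 (1.08), Plin2 (1.59), Slc16a3 (3.02), Rpl3l (3.04), Syvn1 (0.18) and Ucp1 (1.27), which had not passed. None of these passed with the covariate. With the muscle share subtracted, 18 of the 73 lost the call and 6 could not be tested. The 18 included Tbc1d9 (adjusted p = 0.0557), Nr1d1 (0.0528), Ryr2 (0.0507), Srebf1 (0.0563), Pmvk (0.114), Maff (0.0528), Tek (0.0672) and S100b (0.0604). Scn4b (0.0697), Atp2a1 (0.161) and Rpl3l (0.0531) were also among them. Log2 fold changes moved by over 1.5 times for 11: Pygm turned to 9.55, Il16 moved to 10.78, Cx3cr1 to 9.15, Aplnr to 4.18 and Sox4, which lost the call, to 4.68, and those of Sypl2 (-1.65), Slc16a3, Smyd1, Rtn2, Pkia and Asb2 shrank and lost it. The subtraction can take all of a gene's counts in a group, and the fitted value is then no size. Which of these changes came from that, and the cause of the others, was not tested. At 15679884 to 31814056 counts a library, a group with fewer than 3 counts gives only a bound.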

Other observations

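Lists of other functions and cells gave few or no calls, where 4.07% of all genes tested passed. Of 19 adipocyte identity and adipokine genes 0 passed with edgeR (4 at an unadjusted p under 0.05, 1 with DESeq2, median log2 fold change -0.14). Lep, the satiety hormone leptin of white adipocytes, was at 71.9 and 58.4 CPM with 1 copy, against 14.5 and 12.7 CPM in wild type libraries and 0.838 and 11.3 CPM with 2 copies (adjusted p = 0.275). Of 4 tested white adipose markers 0 passed (1 at an unadjusted p under 0.05, 0 with DESeq2). Of 19 glucocorticoid and fasting genes 1 fell (5.26%, against 2.55% of all genes tested), Sgk1, with a median of -0.41. Cell cycle (26 genes), oxidative stress (19) and hypoxia (18) lists had 0 calls (3, 1 and 4 at an unadjusted p under 0.05, and 1, 0 and 2 with DESeq2). So had the lists for progenitors (12 genes, 2 unadjusted, 2 with DESeq2), pericytes (10, 1 and 0), lymphatic vessels (3, 0 and 0), MHC class II (7, 4 and 1), blood (6, 0 and 0), epithelium (1, 0 and 0) and brown adipocyte markers (8, 2 and 2).

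Other genes, picked after their values were seen, had the pattern of Mfsd2a, low with 1 copy and closer to wild type with 2 copies. Dhrs9, a retinol dehydrogenase gene, was at 15.7 and 11.9 CPM with 1 copy, against 64.2 and 46.4 CPM in wild type libraries and 69.7 and 68.6 CPM with 2 copies (adjusted p = 0.00469). Noct was at 295 and 324 CPM with 2 copies, beside the values given above. Slc3a2 and Atf4 differed between 1 copy and 2 copies as well (log2 fold changes -1.91 and -0.98, adjusted p = 0.00168 and 0.00806), in the fit that both contrasts share.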
